A study of Mus musculus with 2 samples.

Results

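The genes described here encode enzymes of the tricarboxylic acid (TCA) cycle and of the routes by which carbon enters and leaves it in mitochondria. They are 31 of the 31253 genes listed in 2 single-cell RNA-seq libraries, and they were chosen by function, as a fixed list of symbols, with earlier results of these data known. All 31 symbols were found. The libraries were made from Cd45+ cells sorted from B16-F10 tumors, a mouse melanoma line of C57BL/6 origin, in Irg1+/+ and Irg1-/- mice on the C57BL/6J background. Irg1, named Acod1 in current annotation, encodes the enzyme that makes itaconate from the TCA cycle intermediate cis-aconitate, and the study asked what its loss does to the immune cells of a tumor. Each mouse received 200000 tumor cells under the skin, the tumors were taken on day 10, pieces of 100 mm3 from 3 mice of a genotype were combined, and 6000 Cd45+ cells were sorted from each pool and captured in microwells (BD Rhapsody). According to the study's methods the mice were females, and the knockout was that of the whole animal. The labels do not name the Irg1 allele, and the study's methods give the Jackson Laboratory as the source of the knockout line.

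Each genotype was thus 1 library of pooled mice with no replicate, so nothing between the genotypes could be tested, and a difference between the libraries cannot be told apart from other differences between the 2 pools. Values are given below for the library labelled Irg1+/+ first and for the library labelled Irg1-/- second. The files held 6408 and 5896 cells. Those with at least 200 genes and under 10% mitochondrial transcripts were kept, which left 6284 and 5794 cells with 42105693 and 35307041 unique molecular identifiers (UMIs, each counting 1 captured transcript) and medians of 4528 and 4594.5 UMIs per cell. The libraries shared 36 cell barcodes. The 31 members took 117199 and 89519 UMIs, or 0.278% and 0.254% of all, and a cell held a median of 10 of them. Of the members, 30 had at least 100 UMIs in each library and 27 at least 1000. The exception was Pcx, pyruvate carboxylase, with 76 and 44 UMIs, which was too sparse to be compared by itself.

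Acod1 had 3696 UMIs in the library labelled Irg1+/+ and 3805 in the library labelled Irg1-/-. Which exons the knockout removes is not stated in the labels, and the position of reads within the gene is not in the files, so this count does not check the genotype. Both libraries are therefore named by their labels. Acod1 lies at chr14:103046977-103056573 on the plus strand of GRCm38, the build of the files.

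Cells were assigned to cell types by marker genes, and a name stands for cells like that type by those markers. A cell was given a type where the mean z score of its markers was at least 0.5, exceeded that of the next type by at least 0.25 and rested on at least 2 detected markers. This left 27.2% and 22.8% of the cells without a type, and 619 and 560 cells lay near the margin. The 12 types of immune cells used here ranged from B cells (78 and 81 cells) and neutrophils (79 and 219) to macrophages (751 and 668) and T cells (1272 and 715). The 10 genes with the largest fold in each type held between 1 and 6 of its own markers and none of another type. For mature dendritic cells that marker was Apol7c, with the cytokine subunit Il12b beside it. The sort had left 142 and 21 cells with the markers of melanocytes, the cells from which B16-F10 derives, and these were not counted among the 12 types.

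In the TCA cycle, acetyl-CoA is joined to oxaloacetate to give citrate, which is oxidised in steps to succinate, fumarate and malate and back to oxaloacetate, feeding electrons to the respiratory chain. Pyruvate reaches the cycle through a carrier in the inner membrane and the pyruvate dehydrogenase complex, and citrate can be exported to the cytosol and split for the synthesis of fatty acids. In macrophages activated by inflammatory stimuli the cycle is known to be interrupted, with citrate drawn off to itaconate and succinate building up, since itaconate inhibits succinate dehydrogenase. The members fall into 8 groups by role. Mpc1 and Mpc2 form the mitochondrial pyruvate carrier, and Pdha1, Pdhb, Dlat and Dld the pyruvate dehydrogenase complex. Pcx, Pck2 and Me2 move carbon between the cycle and the pool of pyruvate and phosphoenolpyruvate. Cs (citrate synthase), Aco1 (cytosolic aconitase), the NADP-dependent isocitrate dehydrogenases Idh1 (cytosolic) and Idh2 (mitochondrial) and the 3 subunits of the NAD-dependent enzyme, Idh3a, Idh3b and Idh3g, act in the first part of the cycle or on the same substrates. Ogdh and Dlst belong to 2-oxoglutarate dehydrogenase, Suclg1, Suclg2 and Sucla2 to the succinyl-CoA ligases, and Sdha, Sdhb, Sdhc and Sdhd to succinate dehydrogenase. Fh1 is fumarase, and Mdh1 and Mdh2 are the cytosolic and mitochondrial malate dehydrogenases. Slc25a1 exports citrate, Slc25a11 exchanges 2-oxoglutarate for malate, and Acly splits citrate in the cytosol. The 31 genes lie on 17 chromosomes.

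Promoter sequences are shown for 3 members that differed in opposite directions in mature dendritic cells, where Slc25a1 was higher and Idh2 and Fh1 were lower than in the other types. RefSeq promoter windows (GRCm38.p6), reaching from 250 bases before to 50 bases after an annotated start, were found for 28 of the 31 members, in 36 windows among 32851 in all. The windows are chr16:17928170-17928469 for Slc25a1, chr7:80115301-80115600 for Idh2 and chr1:175625586-175625885 for Fh1, all on the minus strand and written 5′ to 3′. Capitals mark ACGTG (the core of the hypoxia response element), GGGCGG (the GC box) and CCAAT (the CCAAT box), each on either strand.
Slc25a1: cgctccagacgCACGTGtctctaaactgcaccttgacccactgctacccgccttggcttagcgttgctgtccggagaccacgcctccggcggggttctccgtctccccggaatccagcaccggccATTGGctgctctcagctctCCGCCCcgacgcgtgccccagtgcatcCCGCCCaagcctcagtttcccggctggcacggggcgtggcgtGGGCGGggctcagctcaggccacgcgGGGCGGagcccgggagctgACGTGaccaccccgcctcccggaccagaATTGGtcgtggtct
Idh2: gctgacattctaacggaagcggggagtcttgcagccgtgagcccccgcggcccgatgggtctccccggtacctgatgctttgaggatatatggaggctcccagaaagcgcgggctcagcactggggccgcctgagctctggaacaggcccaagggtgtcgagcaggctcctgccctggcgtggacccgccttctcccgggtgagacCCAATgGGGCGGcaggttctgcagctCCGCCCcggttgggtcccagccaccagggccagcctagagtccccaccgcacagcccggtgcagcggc
Fh1: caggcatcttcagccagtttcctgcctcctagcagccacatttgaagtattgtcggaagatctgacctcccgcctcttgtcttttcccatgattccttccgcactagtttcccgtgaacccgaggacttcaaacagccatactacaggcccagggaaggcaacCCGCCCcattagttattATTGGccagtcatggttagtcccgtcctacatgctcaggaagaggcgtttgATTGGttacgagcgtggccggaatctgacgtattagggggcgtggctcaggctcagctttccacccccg
The Slc25a1 window held 3 copies of ACGTG (the marked CACGTG counts once on each strand), 4 of GGGCGG and 2 of CCAAT. The Idh2 window held none, 2 and 1 of them, and the Fh1 window none, 1 and 2. Some members have more than 1 window. ACGTG occurred in 13 of the 36 member windows, which belong to 8 of the 28 members, and in 19.6% of all windows. GGGCGG occurred in 27 of the 36 (22 members) and in 35.7% of all, and CCAAT in 25 of the 36 (19 members) and in 37.4% of all. The longer motifs searched were rare, GCGCATGC (a site of the factor NRF1) in 3 member windows and 2.71% of all, and AAGGTCA (a site of the estrogen-related receptors) in 2 and 4.72%. A match of letters is a description of the sequence and not a binding site.

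The summed level of the 31 genes differed between cell types. Levels are UMIs per 1000000 nuclear-gene UMIs of the same cells (CPM), with exact Poisson 95% intervals that cover counting error only. With all cells of each type kept, T cells had the highest sum, 3145 CPM (interval 3108 to 3181) and 3161 CPM (3114 to 3208). Type 1 conventional dendritic cells (cDC1) followed with 2891 and 2854 CPM, and macrophages had 2845 and 2581 CPM. Monocytes, with 2233 and 2098 CPM, and mature dendritic cells, with 2163 and 2134 CPM, were lower in both libraries, and the intervals of these 2 types overlapped in each. Neutrophils had the lowest sum, 1374 CPM (1214 to 1550) and 1273 CPM (1176 to 1375), on 79 and 219 cells whose medians were 1700 and 1897 UMIs. Their intervals lay below those of the other 11 types in both libraries. The order at the top changed with the setting. With cycling cells (defined below) left out of every type, T cells had 2534 and 2393 CPM and cDC1 had 2879 and 2783 CPM, the highest sum of the 12 types in both libraries, while neutrophils stayed lowest with 1315 and 1189 CPM. The sum of cDC1 was also the highest with TMM scaling, at 2938 and 2935 CPM against 2773 and 2918 CPM in T cells, and with every cell weighted equally, at 2943 and 2764 against 2759 and 2737 CPM. The cells with melanocyte markers had 4331 and 4074 CPM, more than any immune type. The cells without a type had 2517 and 2382 CPM.

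**Figure D1:**
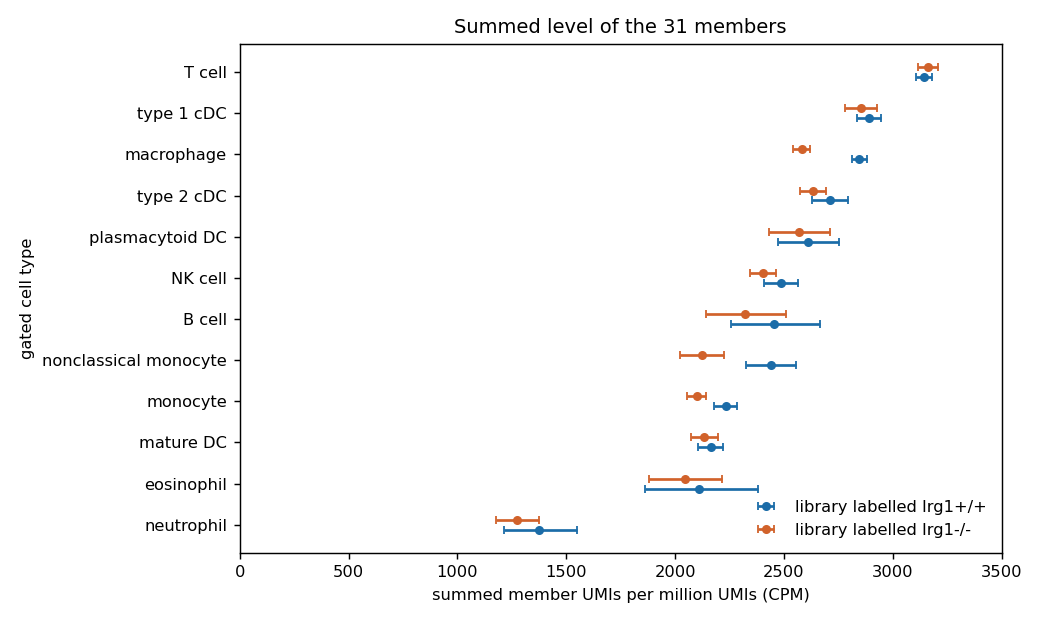
Summed level of the 31 members (x axis, CPM, from 0) in the 12 gated immune cell types (y axis). Points are the 2 libraries and bars are exact Poisson 95% intervals of counting error. All cells of each type are kept. T cells lie at 3145 and 3161 CPM and neutrophils at 1374 and 1273 CPM, with no overlap between these types.

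The members' sum did not follow that of glycolysis. The 16 glycolytic genes listed for comparison summed to 8584 and 7548 CPM in neutrophils and to 8267 and 8305 CPM in T cells, the types at opposite ends for the members. In mature dendritic cells they summed to 4362 and 4265 CPM. A list of 21 nuclear genes of the respiratory chain and ATP synthase summed to 4351 and 4706 CPM in T cells, 3047 and 2970 CPM in mature dendritic cells and 2069 and 1930 CPM in neutrophils, the same order as the members' sum in these 3 types. The share of cells with UMIs of at least 2 of 10 cell cycle genes, called cycling cells below, was 46.1% and 48.7% in T cells, 52.9% and 43.6% in macrophages, 26.2% and 24.2% in mature dendritic cells and 7.59% and 6.39% in neutrophils, and depends on depth. The sums without these cells are given above.

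By role, the sums were as follows. The pyruvate dehydrogenase complex summed to 310 and 292 CPM in T cells against 166 and 172 CPM in mature dendritic cells and 104 and 129 CPM in neutrophils. In the few B cells the libraries stood apart, with 313 CPM (245 to 393) in Irg1+/+, an interval that spans the T cell value, and 181 CPM (134 to 240) in Irg1-/-. Fumarase and the malate dehydrogenases summed to 628 and 609 CPM in T cells and to 256 and 226 CPM in monocytes. The 4 succinate dehydrogenase genes had 671 and 608 CPM in macrophages, 616 and 668 CPM in T cells and 306 and 290 CPM in neutrophils, so that macrophages led in one library and T cells in the other. The 7 genes of the first part of the cycle had 650 CPM in macrophages, 589 CPM in cDC1 and 587 CPM in T cells of the library labelled Irg1+/+, and 563, 558 and 593 CPM in the other. Me2 with Pck2 and Pcx summed to 199 (162 to 241) and 184 (149 to 225) CPM in plasmacytoid dendritic cells, 183 and 186 CPM in T cells, 179 and 181 CPM in NK cells and 70.2 and 65.6 CPM in mature dendritic cells.

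Single members had their own profiles. Of the 30 without Pcx, 16 had the same highest type in both libraries, of which 7 were highest in T cells, and 17 were lowest in neutrophils in both. The highest type was clear of the next by its interval in both libraries for only 4, which were Cs in cDC1 (234 and 233 CPM) and Idh3a, Mdh1 and Mdh2 in T cells. For 5 others (Pck2, Suclg1, Sdhb, Sdhc and Fh1) it was clear in 1 library, and for the remaining 21 in neither. A member was then compared in each type with all other gated immune cells together and called higher or lower where the ratio was at least 1.5-fold the same way in both libraries, among genes with at least 100 observed or expected UMIs in the type. Of 242 member and type pairs so examined, 39 were called, 14 higher and 25 lower, or 5.79% and 10.3%. Of all 63307 gene and type pairs examined the same way, 13.5% were higher and 18.4% lower. In each of the 39 the counting intervals of both libraries lay on the same side of 0.

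**Figure D2:**
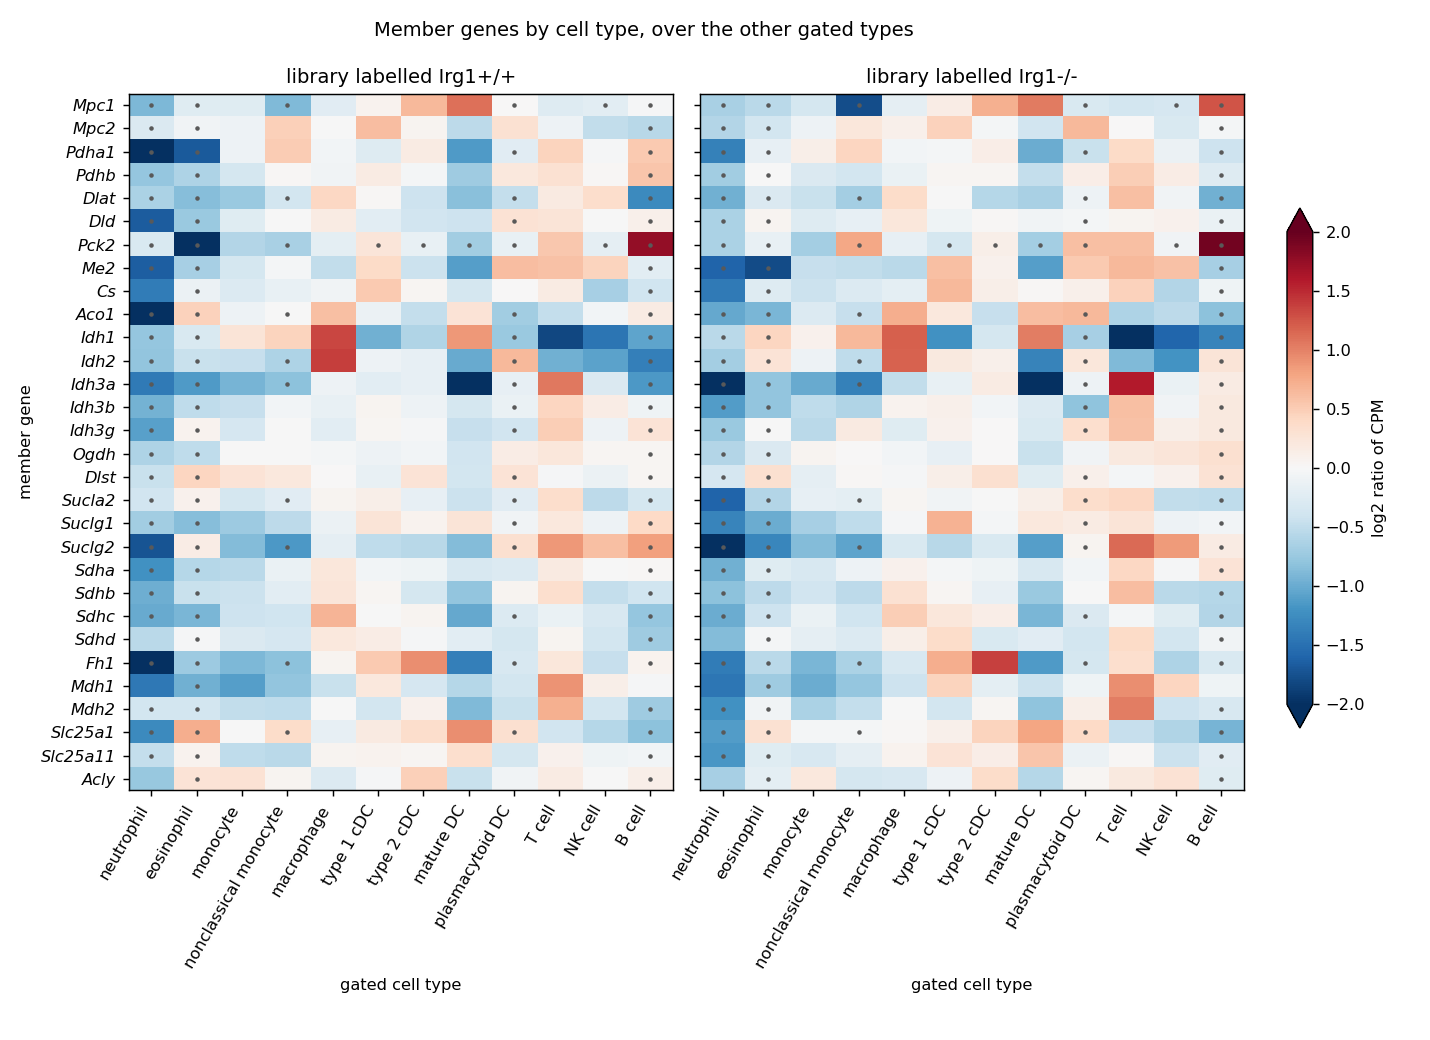
Log2 ratio of CPM in each gated cell type (columns) over the other gated types, for 30 members (rows, without Pcx), in the library labelled Irg1+/+ (left) and Irg1-/- (right). Red is higher and blue lower, colors saturate beyond 2 in either direction, and small dots mark pairs with fewer than 100 UMIs. Idh1 and Idh2 are red in macrophages and blue in T and NK cells in both panels, and Idh3a is blue in mature dendritic cells.

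Mature dendritic cells, the Ccr7-expressing state that dendritic cells reach after activation, had the most members called, 13 of the 29 examined. Lower were 10 members, where 32% of all 6738 genes examined in this type were lower by the same rule, and higher were 3, where 14.5% of all genes were. The count of lower members was thus near the background of this type. The median log2 ratio of the members was -0.45 and -0.38, against -0.29 and -0.30 for all genes.

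Idh3a, the catalytic subunit of the NAD-dependent isocitrate dehydrogenase, was at 15.2 and 10.4 CPM in mature dendritic cells and at 65.6 and 55.6 CPM in the other types, with log2 ratios of -2.09 (interval -2.61 to -1.64) and -2.39 (-3.08 to -1.83). Its partner subunits did not share this. Idh3b was at log2 -0.34 and -0.27 and Idh3g at -0.46 and -0.30, and neither was called. Fh1, fumarase, was at 18.9 and 23.1 CPM against 49.4 and 51.2 CPM, log2 -1.37 and -1.13. Pdha1, the catalytic subunit of pyruvate dehydrogenase, was at 30.5 and 29.9 CPM against 67.1 and 59.8 CPM, log2 -1.13 and -0.99. Me2, the mitochondrial malic enzyme, was at 59 and 56.1 CPM against 127 and 121 CPM. Sdhc, a membrane anchor of succinate dehydrogenase, was at 50.1 and 48 CPM against 103 and 91.3 CPM, log2 -1.03 and -0.92, while Sdha and Sdhd lay within 1.5-fold. Idh2 (-1.01 and -1.33), Dlat (-0.83 and -0.65), Suclg2 (-0.86 and -1.10), Sdhb (-0.80 and -0.75) and Mdh2 (-0.88 and -0.81) were the other members called lower.

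The 3 members higher in mature dendritic cells were Mpc1, Idh1 and Slc25a1. Mpc1 was at 46.9 and 43.9 CPM against 22.0 and 21.4 CPM in the other types, log2 1.10 (0.80 to 1.38) and 1.05 (0.71 to 1.35). Its partner in the carrier, Mpc2, was lower by less than 1.5-fold, at log2 -0.53 and -0.38. Idh1 was at 128 and 132 CPM, log2 0.86 and 1.03, while Idh2, the mitochondrial enzyme of the same reaction, was at 25.3 and 16.3 CPM. The ratio of Idh1 to Idh2 UMIs was therefore 5.06 (3.85 to 6.74) and 8.11 (5.72 to 11.8) in mature dendritic cells, against 1.13 and 1.34 in type 2 conventional dendritic cells (cDC2), 1.5 and 1.79 in macrophages and 0.906 and 0.876 in T cells. Nearest were nonclassical monocytes, at 3.17 (1.96 to 5.32) and 3.91 (2.42 to 6.56), whose intervals overlapped those of mature dendritic cells, and monocytes were at 2.40 and 1.99. Slc25a1 was at 99.9 and 86.9 CPM, log2 0.93 and 0.78. Mpc1, Idh1, Pdha1, Me2, Idh3a and Fh1 kept their calls in this type with cell types named by clustering, without cycling cells, with a stricter cell filter, with every cell weighted equally, with TMM scaling and without the cells of highest doublet score. Slc25a1, Idh2, Dlat, Suclg2, Sdhb, Sdhc and Mdh2 lost theirs when every cell was weighted equally, where Slc25a1 was at log2 0.50 and 0.91 and Idh2 at -0.09 and -1.43. Dlat also lost its call with cluster-named types, with TMM scaling and without the cells of highest doublet score. Suclg2 lost its call without the cells of highest doublet score too, Sdhb without cycling cells and with TMM scaling, and Mdh2 with TMM scaling. Without cycling cells Dlat (-0.50 and -0.47) and Suclg2 (-0.53 and -0.66) had too few UMIs to be called. With every cell weighted equally Idh3a, although still called, was at -0.90 and -2.40.

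**Figure D3:**
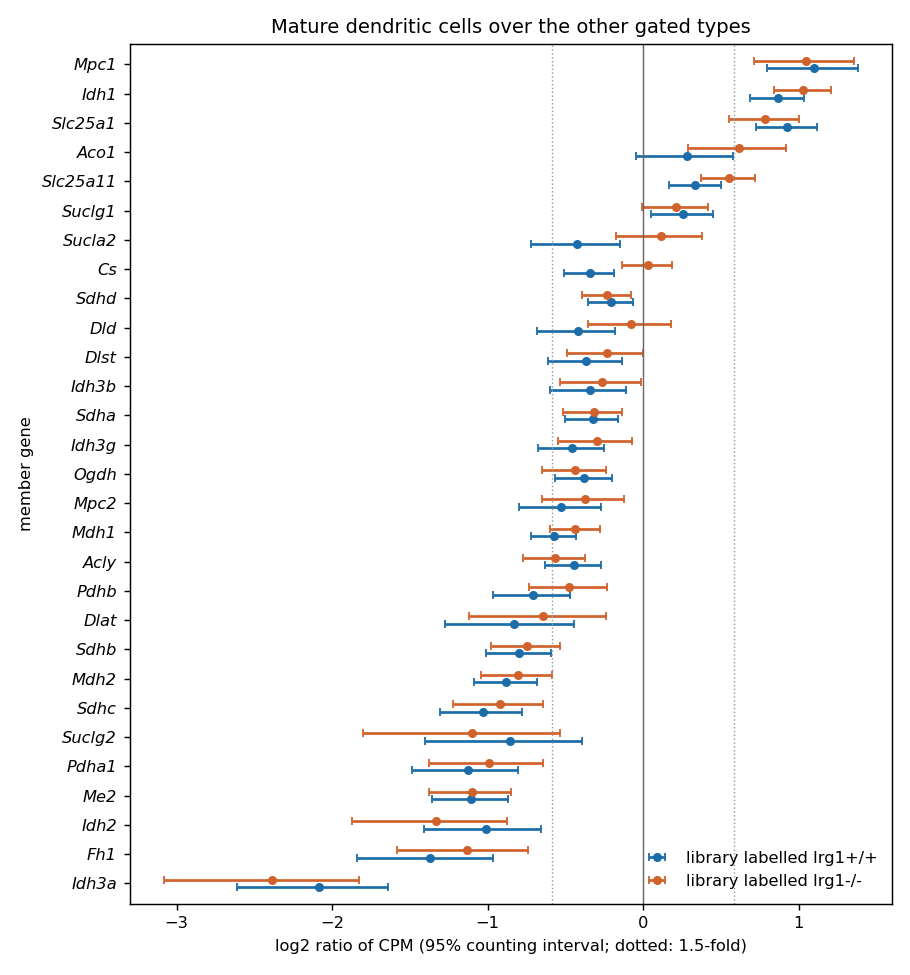
Log2 ratio of CPM in mature dendritic cells over the other gated types (x axis) for the 29 members with enough UMIs (y axis, ordered by the mean of both libraries). Points are the 2 libraries, bars 95% counting intervals and dotted lines 1.5-fold. Idh3a lies lowest at -2.09 and -2.39, and Mpc1, Idh1 and Slc25a1 lie beyond 1.5-fold on the other side.

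Against cDC2 alone, dendritic cells of the same tissue outside the mature state, 8 of 30 members were higher in cDC2 than in mature dendritic cells, where 22.2% of all genes were, and 2 were lower, where 14.1% were. The depths of the types were close, with medians of 6140 and 6629 UMIs in cDC2 and 5274.5 and 5737 in mature dendritic cells, and 34.1% and 29.1% of cDC2 were cycling. Fh1 differed most among the enzymes in the library labelled Irg1+/+, with 85.2 and 109 CPM in cDC2 and log2 ratios over mature dendritic cells of 2.17 (1.69 to 2.69) and 2.23 (1.81 to 2.70). Idh3a had log2 ratios of 1.84 (1.28 to 2.44) and 2.44 (1.83 to 3.17). Pdha1, Me2, Idh2, Sdhc, Mdh2 and Acly were also higher in cDC2, and Idh1 (log2 -1.36 and -1.23) and Aco1 (-0.72 and -0.97) lower. Summed over all members the difference was smaller, at log2 0.33 and 0.30. Neutrophil markers were higher in cDC2 as well, at 652 and 580 CPM against 134 and 196 CPM, as were genes induced by tissue dissociation, at log2 0.64 and 0.66, and their part in these ratios was not tested. Compared with the other types together, cDC2 had Fh1 higher (log2 0.92 and 1.36) and Mpc1 higher (0.64 and 0.71) of 29 members, where 6.17% of all genes were higher. The call of Mpc1 ended with cluster-named types and with every cell weighted equally (0.61 and 0.40). Without cycling cells Mpc1 had too few UMIs to be called, at 0.82 and 0.78. Between cDC1 and cDC2 no member of 30 was called, with 7.54% and 8.21% of all genes higher and lower.

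In T cells 5 of 30 members were higher than in the other types, where 24.1% of all genes were, and 2 were lower, where 18.5% were. Mdh1, the cytosolic malate dehydrogenase of the malate-aspartate shuttle, was at 367 and 332 CPM against 196 and 175 CPM in the other types, log2 0.90 and 0.93. Mdh2 was at 209 and 218 CPM, log2 0.71 and 1.02. Idh3a was at 98 and 113 CPM, log2 1.05 (0.92 to 1.18) and 1.59 (1.44 to 1.74). By CPM its level in T cells was the highest and in mature dendritic cells the lowest of the 12 types. Neutrophils, with 4 and 6 Idh3a UMIs, were too sparse to be set apart from mature dendritic cells. Suclg2, the subunit of the GTP-forming succinyl-CoA ligase, was at 37.8 and 39 CPM, log2 0.86 and 1.14, and Me2 at log2 0.59 and 0.65. Idh1, at 26.5 and 20.6 CPM, was lower by log2 -1.82 (-2.03 to -1.63) and -1.99 (-2.29 to -1.72), and Idh2, at 29.3 and 23.5 CPM, by -0.96 and -0.89. Cycling cells supplied 74.5% and 80.0% of the UMIs of T cells. With cycling cells left out of every type, Mdh1 was at 0.90 and 0.87, Idh3a at 0.74 and 0.55, Mdh2 at 0.17 and 0.18 and Suclg2 at 0.28 and 0.02, and Idh1 at -1.81 and -1.67. Of the 7 members called, Suclg2 then had too few UMIs to be called, and Mdh1, Idh1 and Idh2 kept their calls. That of Idh2 ended with cluster-named types and with every cell weighted equally (-0.63 and -0.40), and that of Me2 also with the stricter filter and TMM scaling. The call of Mdh2 ended with TMM scaling and with every cell weighted equally, and that of Suclg2 with every cell weighted equally.

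NK cells shared the low Idh1 (27.7 and 24.8 CPM) and Idh2 (23.8 and 18.1 CPM), which were the 2 members of 28 called lower, where 15.1% of all genes were. Suclg2 was the member called higher, at 37.6 and 36.6 CPM and log2 0.60 and 0.85, where 15.1% of all genes were higher, a call that TMM scaling ended. Sucla2, the partner subunit for the ATP-forming ligase, was at 40.3 and 37 CPM, and the ratio of Suclg2 to Sucla2 UMIs was 0.934 (0.640 to 1.36) and 0.989 (0.735 to 1.33) in NK cells, 0.558 and 0.611 in T cells, 0.317 and 0.276 in monocytes and 0.333 and 0.192 in mature dendritic cells. Directly compared with NK cells, T cells had 6 of 30 members higher, where 13.6% of all genes were. They were Cs (185 and 198 CPM against 110 and 106), Idh3a, Sucla2, Sdhb, Fh1 and Mdh2 (209 and 218 CPM against 118 and 98.5). The T cells were deeper, with medians of 4265 and 3826 UMIs against 2858.5 and 2652, and more of them were cycling than the 17.7% and 12.6% of NK cells. Within T cells, those with CD8 transcripts had more Idh3a than those with Cd4, 111 and 120 CPM against 55.7 and 68, log2 0.99 (0.65 to 1.37) and 0.81 (0.39 to 1.27). This was the member called higher among 30, where 7.41% of all genes were. Pck2, the mitochondrial phosphoenolpyruvate carboxykinase, was called lower, at log2 -0.63 and -0.72, where 8.57% of all genes were, with an interval that ended just below 0 in one library and spanned it in the other. The cells with CD8 transcripts were deeper, with medians of 5096 and 7498.5 against 3612 and 2931 UMIs, and 54.7% and 63.3% against 33.0% and 26.7% of them were cycling, whose part was not tested.

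In macrophages 3 of 30 members were higher than in the other types, where 11.1% of all genes were, and none was lower, where 17% were. The count of higher members was thus near the background of this type. The 3 act on isocitrate or citrate, as do Idh3a, Idh3b, Idh3g, Cs, Slc25a1 and Acly, which were not called. Idh1 was at 133 and 123 CPM against 52.5 and 53.5 CPM, log2 1.34 (1.22 to 1.45) and 1.20 (1.07 to 1.33). Idh2 was at 88.3 and 68.7 CPM against 34.0 and 30.3 CPM, log2 1.38 (1.23 to 1.52) and 1.18 (1.01 to 1.35). Aco1, which is also the iron regulatory protein IRP1, was at 42.8 and 42.7 CPM, log2 0.60 and 0.72, a call that ended with cluster-named types, with the stricter cell filter and without cycling cells (0.49 and 0.37). Without cycling cells Idh2 kept its call at 0.88 and 1.01, and Idh1 was at 0.42 and 0.66, which ended its call. Against monocytes, macrophages were higher for Idh1 (133 and 123 against 87.5 and 73.9 CPM), Idh2 (against 36.5 and 37.2 CPM) and Dlat (44.2 and 39.5 against 22.4 and 25 CPM), 3 of 30, where 17.7% of all genes were higher. The monocytes were shallower, with medians of 5299 and 5220 UMIs, and 21.1% and 12.8% of them were cycling. Monocytes had 6 of 30 members lower than the other types, close to the 22.7% of all genes, and none higher, where 8.8% were. The 6 were Mdh1 (120 and 111 CPM, log2 -1.10 and -0.99), Idh3a, Fh1, Suclg2, Suclg1 and Pck2, and with cycling cells left out Mdh1 alone of them kept its call. Pck2 then had too few UMIs to be called, at -0.14 and -0.42. The calls of Pck2, Suclg1 and Suclg2 also ended with cluster-named types and with every cell weighted equally, that of Idh3a with every cell weighted equally, those of Pck2 and Suclg1 with TMM scaling and that of Pck2 with the stricter filter. Nonclassical monocytes had Mdh1 lower (log2 -0.79 and -0.77) among 20 members, where 9.51% of all genes were lower, and the call ended without cycling cells (-0.37 and -0.57) and with every cell weighted equally (-0.58 and -0.40). In cDC1, Idh1 was lower, at 40.7 and 31.4 CPM (log2 -0.96 and -1.22), the member called of 29, where 15.3% of all genes were lower and 7.6% higher. With every cell weighted equally it was at -0.43 and -1.21, which ended the call. No member of 12 was called in plasmacytoid dendritic cells, where 16.8% of all genes were higher and 13.5% lower. In B cells 1 member was examined and not called, where 15.9% and 22.3% of all genes were.

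Neutrophils had few UMIs, so that 4 members could be compared with the other types. Of these, 3 were lower, where 30.6% of all genes examined were. Cs was at 62.2 and 57.6 CPM against 172 and 156 CPM, log2 -1.41 (-2.42 to -0.66) and -1.42 (-2.02 to -0.92). Mdh1 was at 88.2 and 75.4 CPM, log2 -1.44 in both, and Acly at 83 and 91.3 CPM, log2 -0.76 and -0.66. The call of Acly ended with the stricter cell filter, with TMM scaling and without the top doublet scores, and without cycling cells Cs and Acly had too few UMIs. Against monocytes, which hold more UMIs, 10 of 28 members were lower in neutrophils, where 19.5% of all genes were, and for Pdha1, Me2, Cs, Idh1, Slc25a1 and Acly the intervals of both libraries lay below 0. The other 4, Aco1, Ogdh, Sdha and Sdhc, had an interval that reached above 0 in 1 library. The sum of the members was lower by log2 -0.70 (-0.88 to -0.52) and -0.72 (-0.84 to -0.61), and that of glycolysis higher by 0.36 and 0.46. Hypoxia genes were higher in neutrophils than in monocytes, at 5430 and 6196 against 2070 and 1429 CPM, and genes induced by tissue dissociation at log2 1.18 and 1.22. Their part in the low sum was not tested.

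For 4 members the share of cells with a UMI was compared at equal depth. Thinning each cell to 2000 UMIs left out the shallower cells, which were 180 of 1272 and 154 of 715 T cells, 120 of 751 and 63 of 668 macrophages, 29 and 55 monocytes, 19 and 28 cDC2 and 73 and 44 mature dendritic cells. Mdh1 was then found in 47.1% and 42.4% of T cells and in 20.2% and 18.9% of monocytes, where the unthinned shares were 66.8% and 64.2%, and 42.7% and 40%. Idh1 was found in 19.2% and 17.2% of macrophages, 20.9% and 18.2% of mature dendritic cells and 4.95% and 4.28% of T cells. Idh3a was found in 15.9% and 12.3% of T cells and 1.79% (0.66 to 3.86) and 2.41% (0.972 to 4.89) of mature dendritic cells, and Fh1 in 13.9% and 14.9% of cDC2 and 2.69% and 2.75% of mature dendritic cells. Free RNA in the suspension can add UMIs to cells that do not express a gene, and so the lowest of these shares cannot be read as expression.

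Other genes of the pathway were listed for comparison, 28 that are not members. In mature dendritic cells 3 of 12 examined were higher and 1 lower, where 14.5% and 32% of all genes were. Got1, the cytosolic aspartate aminotransferase, was at 730 and 658 CPM there against 227 and 196 CPM in T cells, Sdhaf1, an assembly factor of succinate dehydrogenase, at 92.7 and 81.9 CPM against 35.1 and 30.6 CPM, and Slc25a10, the mitochondrial dicarboxylate carrier, at 36.1 and 42.6 CPM against 13.9 and 14.8 CPM. Lias, the lipoic acid synthase whose cofactor the dehydrogenase complexes need, was lower, at 16.4 and 17.7 CPM against 36.7 and 40.6 CPM. In macrophages 2 of 17 were higher, Pdk1, a kinase that inhibits pyruvate dehydrogenase (58.3 and 48.8 CPM), and Slc13a3, a dicarboxylate transporter of the plasma membrane (10.7 and 16.7 CPM), and 1, Sdhaf1, was lower, where 11.1% and 17% of all genes were. In T cells none of 17 was called in either direction, where 24.1% and 18.5% of all genes were.

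The enzyme that draws cis-aconitate from the cycle is made by Acod1. Among the immune types used here Acod1 was highest in neutrophils, at 1841 and 1487 CPM. Eosinophils followed in both libraries, at 695 and 388 CPM. Monocytes had 163 and 115 CPM and nonclassical monocytes 119 and 118 CPM. Acod1 was at 89.1 and 145 CPM in macrophages and at 28.1 and 29.0 CPM in T cells. After thinning to 2000 UMIs, which left out 51 of 79 and 127 of 219 neutrophils as too shallow, it was found in 57.1% (37.2 to 75.5) and 73.9% (63.7 to 82.5) of neutrophils, 14.6% and 17.9% of macrophages and 5.13% and 5.70% of T cells, which should lack it and mark the background of free RNA, at unthinned medians of 1700 and 1897, 9498 and 9135.5, and 4265 and 3826 UMIs. In macrophages with an Acod1 UMI (263 and 291 cells) no member of 30 was called against those without (488 and 377 cells), where 0.718% of all genes were higher and 0.236% lower. The Acod1-positive cells were deeper, with medians of 13904 and 12168 against 7807 and 7283 UMIs, and 64.3% and 56.4% against 46.7% and 33.7% of them were cycling. Some of their Acod1 UMIs can be free RNA, more often in deeper cells. The groups are thus mixed, and the absence of calls cannot show that members are alike with and without Acod1 expression. The sum of the members was 2828 against 2860 CPM in one library and 2634 against 2511 CPM in that labelled Irg1-/-, or log2 -0.02 (-0.05 to 0.02) and 0.07 (0.03 to 0.11). After thinning to 2000 UMIs the ratio was at -0.21 (-0.36 to -0.06) and -0.15 (-0.29 to -0.01), within 5 strata of depth at -0.09 and -0.04, and without cycling cells at -0.05 and -0.07, so that the sign turned in the library labelled Irg1-/- and the value moved in the other.

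In monocytes no member of 28 was called between cells with and without an Acod1 UMI, where 1.35% of all genes were higher and 1.2% lower. Free RNA limits this comparison in the same way. The sum was lower in the positive cells, by log2 -0.23 (-0.31 to -0.16) and -0.09 (-0.16 to -0.02), and the first part of the cycle by -0.37 (-0.56 to -0.20) and -0.28 (-0.45 to -0.12). Hypoxia genes were higher in the same cells, at log2 0.46 and 0.42, and glycolysis at 0.16 and 0.42, and their part was not tested. In neutrophils no member reached 100 UMIs for this comparison, of 52 and 163 positive against 27 and 56 negative cells, in which 3.52% of the genes examined were higher and 2.08% lower. The sum was at log2 -0.73 (-1.10 to -0.35) in the library labelled Irg1+/+ and -0.22 (-0.48 to 0.06) in the other, where it was at -0.68 after thinning and turned to 0.16 (-0.15 to 0.50) with cluster-named types. The sum of Slc25a1, Slc25a11 and Acly was lower by -1.28 (-2.33 to -0.19) and -0.81 (-1.50 to -0.05). Acly, which is part of that sum, was by itself at log2 -1.62 (-3.23 to -0.0036) and -1.18 (-2.07 to -0.20) on fewer than 100 UMIs. Sdhb (1.44 and 0.35) and Ogdh (0.33 and 0.35) went the other way, with intervals that spanned 0. With a minimum of 30 UMIs, Acly was the only member past the fold in this comparison, where 9.85% of all genes were. The glycolysis sum was at 0.04 and 0.05. Neutrophil markers were at log2 -0.15 and 0.47 between these cells.

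Of 30 members 7 were higher in cycling than in other T cells, where 12.8% of all genes were, and none was lower, where 12.8% were. None of the 7 calls was made among T cells of 5000 to 10000 UMIs, which are fewer cells and in which 23 members were examined and 5.51% of all genes were past the fold. There were 587 and 348 cycling and 685 and 367 other T cells, with medians of 9689 and 10875.5 against 3024 and 2470 UMIs. Mdh2 was at 235 and 245 CPM against 130 and 109 CPM, log2 0.85 (0.68 to 1.04) and 1.16 (0.89 to 1.45). Fh1 was at 60.9 and 65.6 CPM against 27.8 and 31 CPM, and Idh3a at 109 and 129 against 65.5 and 46.5 CPM. Cs, Suclg2, Sdhb and Sdhd were the others. The sum of the members was higher by log2 0.40 and 0.49, that of the respiratory chain by 0.48 and 0.63 and that of glycolysis by 0.69 in both. Within the same range of depth the sum was at 0.17 (0.08 to 0.25) and 0.03 (-0.10 to 0.16). The part of depth in these ratios was not tested further. In macrophages, cycling cells had higher Idh1 (147 and 141 against 86.7 and 92.0 CPM) and Pck2 (log2 0.92 and 0.71), 2 of 30, where 3.15% of all genes were higher, and a sum higher by 0.27 and 0.25, which was 0.03 and 0.08 within the range of depth, where no member of 27 and 1.36% of all genes were called. In cDC1 no member of 28 was called, where 3.66% of all genes were higher, and the sum was at 0.01 and 0.06.

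Macrophages with the most hypoxia transcripts had a lower sum of the members than those with the fewest. Cells were ranked by their UMIs of 12 hypoxia genes after thinning to 2000. The 163 and 155 cells with at least 7 and 6 such UMIs were compared with the 172 and 188 cells with at most 1, and 296 and 262 cells lay between, which is a range along a score and not a cell type. Of 30 members 4 were lower, where 7.47% of all genes were, and none was higher, where 5.06% were. Idh2 was at 49.2 and 43.3 CPM in hypoxia-high against 115 and 85.4 CPM in hypoxia-low macrophages, log2 -1.22 (-1.58 to -0.88) and -0.97 (-1.42 to -0.56). Idh3a was at 34.4 and 17.6 against 63.9 and 45.2 CPM, log2 -0.89 and -1.34, and Fh1 at 28.4 and 24.2 against 56.4 and 53.6 CPM, log2 -0.98 and -1.13. Suclg2 was at log2 -1.08 and -0.88, with an interval that reached 0 in the library labelled Irg1-/-. Me2 went the other way, at 116 and 106 against 76.1 and 81.6 CPM, log2 0.61 and 0.37, short of 1.5-fold in one library.

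Summed over all members the log2 ratio was -0.40 (-0.45 to -0.35) and -0.38 (-0.44 to -0.32), close to the -0.41 and -0.39 of the respiratory chain list, while the glycolysis list was at 1.02 and 0.95. The succinate dehydrogenase genes were at -0.47 and -0.52. Hypoxia-high cells were shallower, with medians of 8542 and 7550 against 12500.5 and 11750.5 UMIs, and fewer of them were cycling, 55.8% and 36.8% against 66.3% and 59.6%. Macrophage markers were lower in them too, at log2 -0.53 and -0.30, and genes induced by tissue dissociation higher, at 0.71 in both. The part of depth, macrophage markers and dissociation genes in these ratios was not tested. Without cycling cells the sum was at -0.31 and -0.30 and Idh2 at -1.51 and -0.97, but Fh1 was at -0.65 and -0.77 with intervals that spanned 0 in both libraries, and Idh3a at -0.28 and -1.59 with one that spanned 0 in the library labelled Irg1+/+. With hypoxia and glycolysis genes left out of the total the sum was at -0.38 and -0.37. In monocytes the sum was lower by -0.18 and -0.22, and Fh1 was the member called lower of 27, where 1.9% of all genes were, with intervals that spanned 0 in both libraries.

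**Figure D4:**
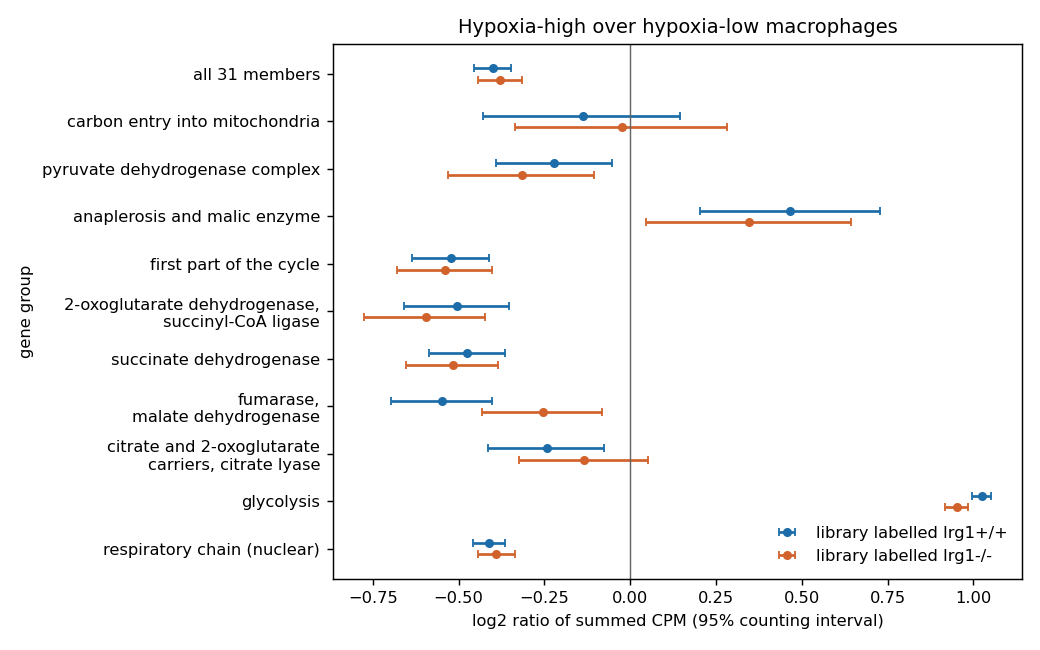
Log2 ratio of summed CPM in hypoxia-high over hypoxia-low macrophages (x axis) for all 31 members, their 8 role groups and the glycolysis and respiratory chain lists (y axis). Points are the 2 libraries and bars 95% counting intervals. The member sum lies at -0.40 and -0.38 and glycolysis at 1.02 and 0.95.

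Between the libraries none of the 223 member and type pairs with enough UMIs was past 1.5-fold. In macrophages 30 members were examined, and 2.59% of all genes were higher and 4% lower in the library labelled Irg1-/-. In T cells 30 were examined, with 1.18% and 2.64% of all genes, in NK cells 27, with 1.89% and 2.36%, and in B cells 1, with 5.98% and 3.95%. In monocytes 28 were examined, with 2.55% and 2.82% of all genes, and in nonclassical monocytes 17, with 2.84% and 2.77%. Among dendritic cells 28 were examined in cDC1, with 3.05% and 3.86% of all genes, 27 in cDC2, with 2.42% and 3.05%, 24 in mature dendritic cells, with 2.8% and 2.78%, and 11 in plasmacytoid dendritic cells, with 2.87% and 3.71%. None of the 223 pairs was in neutrophils, where 6.24% and 7.67% of all genes examined were past the fold, or in eosinophils, where 7.24% and 4.56% were.

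The members leaned to one side in macrophages. Of 30, 26 were lower in the library labelled Irg1-/- than in that labelled Irg1+/+, where 56.5% of all 8918 genes were, with a median log2 ratio of -0.14 against -0.04. The interval lay below 0 for 11 members and above it for none, where 21.1% and 14.9% of all genes lay below and above. Idh3a was at 58.4 CPM in the library labelled Irg1+/+ and 39.6 CPM in that labelled Irg1-/-, log2 -0.56 (-0.78 to -0.35). Idh2 was at 88.3 and 68.7 CPM, log2 -0.36 (-0.53 to -0.20), and Idh3g at 93.8 and 76.6 CPM, log2 -0.29. Sdhc was at 136 and 113 CPM, Sdha at 168 and 142 CPM and Mdh1 at 194 and 164 CPM. The pyruvate carrier genes were the exception among the role groups, with a sum of 93.5 and 101 CPM. The sum of all members was lower by log2 -0.14 (-0.17 to -0.11), and lay between -0.15 and -0.09 over all other settings tried. Some other lists differed more between the same macrophages. Glycolysis summed to 8873 and 7526 CPM, hypoxia genes to 2247 and 1859 CPM and genes induced by tissue dissociation to 7781 and 9408 CPM, and Acod1 was at 89.1 and 145 CPM. Markers of other cell types differed as well, those of melanocytes at 185 and 91.4 CPM, of fibroblasts at 11.7 and 32.0 CPM and of neutrophils at 131 and 185 CPM. The cells with melanocyte markers had the high member sums given above. The part of these lists in the lean of the members was not tested. Cycling cells made up 52.9% of macrophages in the library labelled Irg1+/+ and 43.6% in the other. Without them 21 of 28 members were lower, where 53.4% of all genes were, with a median of -0.07. With TMM scaling 24 of 30 were lower, where 53.7% of all genes were, and with every cell weighted equally 20 of 30, where 54.5% were.

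**Figure D5:**
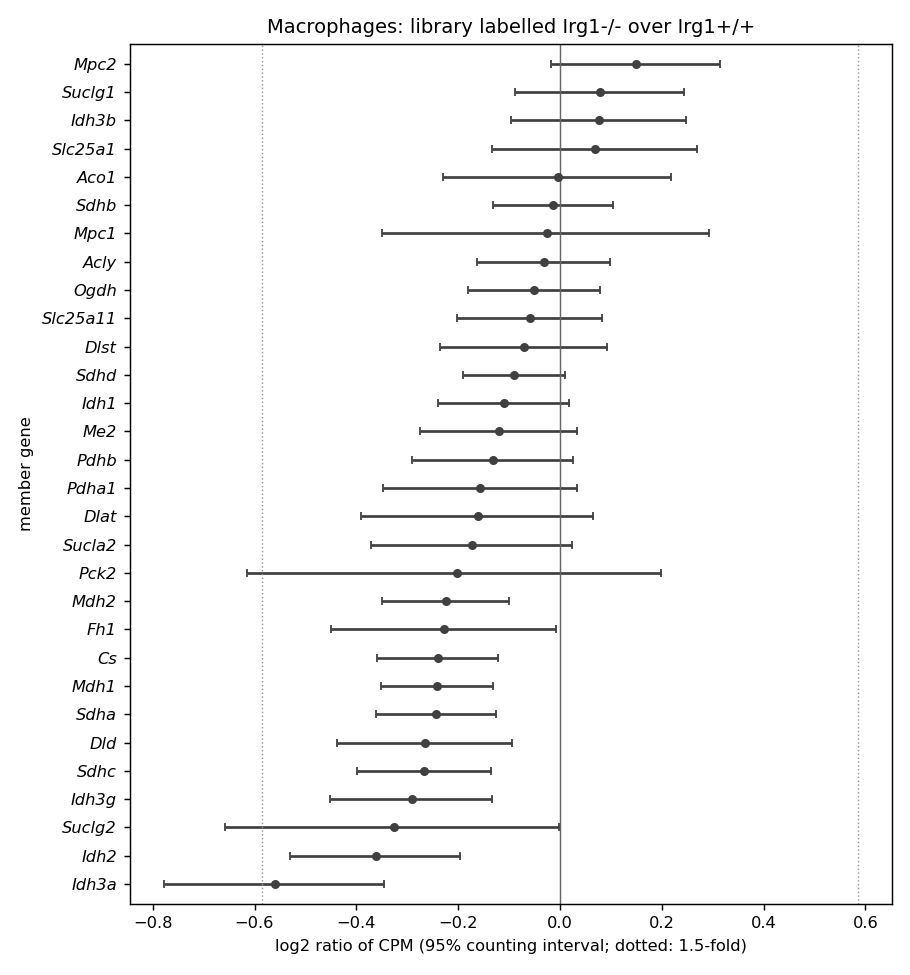
Log2 ratio of CPM in macrophages of the library labelled Irg1-/- over that labelled Irg1+/+ (x axis) for 30 members (y axis). Bars are 95% counting intervals, dotted lines 1.5-fold, and there is 1 library per genotype and no replicate. Idh3a lies lowest at -0.56 and no member passes 1.5-fold.

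In CPM the members were also lower in more cases than higher in most other types. Lower were 19 of 27 in NK cells, where 52.6% of all genes were, 18 of 28 in cDC1, where 51.9% were, 19 of 27 in cDC2, where 55.9% were, and 15 of 24 in mature dendritic cells, where 55.8% were. With TMM scaling these counts were 15, 17, 11 and 9, where 42.6%, 49.3%, 44.7% and 44.5% of all genes were. In T cells 15 of 30 members were lower, where 57.8% of all genes were, and with TMM scaling 13 of 30, where 44.6% were. Dld, the dihydrolipoamide dehydrogenase shared by the dehydrogenase complexes, was at 83.6 and 61.4 CPM, log2 -0.44 (-0.63 to -0.26), while Idh3a was at 98.0 and 113 CPM, log2 0.20 (0.05 to 0.35), and Sdhd at 198 and 231 CPM, log2 0.22. In monocytes 16 of 28 were lower, where 54.7% of all genes were, with Dlst (96.0 and 70.5 CPM, log2 -0.44) and Idh3g (84.5 and 62.9 CPM, log2 -0.43) at the low end. In cDC2 Me2 was at 91.0 and 122 CPM, log2 0.42, and Fh1 at 85.2 and 109 CPM, log2 0.36. In nonclassical monocytes 14 of 17 were lower, where 53.4% of all genes were, with 146 and 144 cells. With TMM scaling 13 of these 17 were lower, where 44.7% of all genes were. In mature dendritic cells the sum was at log2 -0.02 (-0.08 to 0.04).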

How the data were processed

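Per the study's methods, the authors trimmed reads with fastp, found cell barcodes with UMI-tools and aligned them with STAR, using the mouse annotation of Ensembl version 100, and the submitters' processing notes name CASAVA 1.8, UMI-tools, Seurat and GRCm38. They deposited raw UMI counts per gene and cell. From these, cells with under 200 genes or at least 10% mitochondrial UMIs were removed, and mitochondrial genes were left out of all totals. Marker levels were log-transformed and z scores limited to 5, and types with at least 50 cells per library were used. Cell types were rebuilt here and can differ from the study's. Counts were summed by type and library. Ratios used a pseudocount of 0.5 UMIs, at least 100 UMIs and a fold of 1.5. Intervals are exact Poisson or Clopper-Pearson (95%), which cover counting error only. With 1 library per genotype no test was made. Scrublet marked only 2 and 1 cells as doublets, and its calls were not used. Leaving out the 5% of cells with the highest scores was an alternative, and whether these scores find doublets was not tested. All 31 members are described, and in each comparison those past the fold are named, also where more than 5 were and the rule asked for the 3 highest and 3 lowest. Members and lists were chosen with earlier results of these data known. Further alternatives were cluster-named types, a stricter filter (500 genes, 5% mitochondrial), the mean of each cell's CPM, TMM scaling, other thresholds and omission of cycling cells. The ratios were checked on simulated data. Python 3.11.15, numpy 2.4.6, scipy 1.17.1, pandas 2.3.3, scanpy 1.11.5, leidenalg 0.10.2, matplotlib 3.10.9 and edgeR 4.0.16 (for TMM factors) were used.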

Additional observations from a re-analysis of the deposited data

Results flagged for a closer look

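Some effects had opposite signs in the 2 libraries or in 2 cell types, with counting intervals clear of 0 on both sides. None of these differences between groups was tested, since each genotype is 1 library.

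The hypoxia sum in Acod1-positive over Acod1-negative macrophages was at log2 0.30 in the library labelled Irg1+/+ and -0.43 in that labelled Irg1-/-. In cycling over other cDC1 it was at 0.13 and -0.55. The sum of genes induced by tissue dissociation in Acod1-positive over Acod1-negative monocytes was at 0.0591 and -0.0421. Acod1 itself in macrophages over monocytes was at -0.87 and 0.34.

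Between the libraries (Irg1-/- over Irg1+/+), Idh3a was at log2 0.20 in T cells and -0.56 in macrophages. Fh1 was at 0.36 in cDC2 and -0.23 in macrophages. Me2 was at 0.42 in cDC2 and -0.52 in nonclassical monocytes. Sdhd was at 0.17 in cDC1 and 0.22 in T cells and at -0.29 in cDC2. The sum of the succinate dehydrogenase genes was at 0.12 in T cells and -0.14 in macrophages.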

How the results depend on the processing

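Shares in parentheses are those of all genes past the fold under the same setting. Of the 39 member and type calls, 13 of 242 pairs were left with a fold of 2 (17% of all), and 65 of 328 were called with at least 30 UMIs (32.2%). Between the libraries, where none of 223 pairs was past 1.5-fold (5.82%), cluster-named types gave 1 of 203 (Dlat in NK cells, 5.22%), omission of cycling cells 2 of 185 (5.56%), the mean of each cell's CPM 6 of 223 (8.98%), a minimum of 30 UMIs 14 of 310 (12.6%) and a lower fold minimum 23 of 223 (21.9%). For Acod1-positive monocytes, where none was called, at least 2 Acod1 UMIs gave 3 of 28 (5.28%), thinning to 2000 UMIs 1 of 23 (4.78%) and 5 strata of depth 1 of 28 (2.51%), and for macrophages thinning gave 2 of 26 (3.05%). The member sum in Acod1-positive macrophages of the library labelled Irg1-/- was at log2 0.07 and turned to -0.15 with thinning, -0.0413 within 5 strata of depth and -0.0698 without cycling cells. In the library labelled Irg1+/+ it was at -0.02 and moved to -0.21, -0.09 and -0.05 under the same settings. In neutrophils of the library labelled Irg1-/- it was at -0.22 and lay between -0.68 with thinning and 0.16 with cluster-named types. The member sum of cDC1 was above that of T cells without cycling cells, with TMM scaling and with every cell weighted equally. Detection calls numbered 31 of 259 pairs with thinning (24%) and 135 of 353 without (39.7%). Within 5000 to 10000 UMIs the 7 calls in cycling T cells and the 2 in cycling macrophages fell to 0, with fewer cells and members examined. The 1 call in hypoxia-high monocytes fell to 0 without cycling cells and without the top doublet scores. The causes of these differences were not tested beyond what each setting changes. Leaving out shared barcodes, the fold of 2 and the minimum of 30 UMIs for types, the range of depth and all settings of the hypoxia comparison were chosen after seeing the data. No paired analysis was possible because each genotype has 1 sample and no test was made. Depth limited B cells, eosinophils and neutrophils, in which few members reached 100 UMIs, and ratios below 1.5-fold between single libraries have no replicate check.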
